A study of Mus musculus with 14 samples.

Results

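The tissue inhibitors of metalloproteinases are encoded in the mouse by Timp1, Timp2, Timp3 and Timp4, and all 4 were measured, each by 1 probe set whose annotation gives that symbol alone, among 19938 genes in all. They were followed in the plantaris, a plantar flexor in the calf, of male C57BL/6J mice aged 25 months. The muscle had been overloaded by synergist ablation, that is by surgical removal of the gastrocnemius and soleus, and was taken on days 0, 1, 3, 5, 7, 10 and 14. Each day had 2 Affymetrix Mouse Gene 1.0 ST arrays, 1 with a pool of left and 1 with a pool of right muscles from 6 animals, so that 14 arrays were compared. The source of every array, day 0 included, is named as healthy old mice, no array is labelled as sham-operated, and young mice were not analysed here, so surgery and load cannot be told apart in a comparison with day 0. The labels do not say whether the left and right pool of a day share animals, so a p-value here covers the spread between 2 pools and their arrays, which may be technical, and not that between single mice.

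Signals are given on the log2 scale, and over the genes tested the median of an array lay between 8.25 and 8.42. Across genes, r between the 2 arrays of a day ran from 0.994 to 0.997, and genes are not independent replicates. All 12 markers of muscle fibres fixed for the check of the tissue were measured, and their mean log2 signal lay between 13.89 and 13.92 on the day 0 arrays. The median difference from day 0 over all genes ran from 0.04 on day 1 to -0.14 on day 7, and every difference below can be read against that shift. In whole muscle, fewer cells of a type and less RNA per cell cannot be told apart.

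TIMPs are small secreted proteins whose N-terminal domain enters the active site of matrix metalloproteinases (MMPs) and blocks the catalytic zinc. Beyond this shared function the paralogues differ: TIMP1 is an inducible inhibitor that also binds the proform of MMP9, TIMP2 inhibits MMP14 at the cell surface and also bridges it to the proform of MMP2 for activation, TIMP3 binds to the matrix and also inhibits proteases of the ADAM and ADAMTS families, and TIMP4 has the most restricted expression, with heart, skeletal muscle and adipose tissue among its sites. In tissue repair the balance between these inhibitors and the proteases shapes how matrix is removed and laid down.

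The promoter windows of the 4 genes are shown because their courses differed in direction. Each runs from 250 bases before to 50 bases after the RefSeq start, in build GRCm38.p6, 5′ to 3′ on the gene's strand. Capitals mark matches, on either strand, to the letters searched: the AP-1 site TGANTCA, the AP-1-like variant TGAGTAA that is known from the mouse Timp1 promoter, the GC box GGGCGG bound by SP1, the TATA box TATAAA and the E-box CANNTG. The Timp1 window is chrX:20869916-20870215 on the plus strand, that of Timp2 is chr11:118355362-118355661 on the minus strand, that of Timp3 is chr10:86300162-86300461 on the plus strand and that of Timp4 is chr6:115252156-115252455 on the minus strand.
Timp1: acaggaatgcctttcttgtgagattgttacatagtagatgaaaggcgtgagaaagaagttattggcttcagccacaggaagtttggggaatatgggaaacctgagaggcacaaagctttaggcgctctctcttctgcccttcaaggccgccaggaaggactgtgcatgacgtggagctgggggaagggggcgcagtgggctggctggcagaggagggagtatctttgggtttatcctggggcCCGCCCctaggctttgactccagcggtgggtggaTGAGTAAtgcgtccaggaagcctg
Timp2: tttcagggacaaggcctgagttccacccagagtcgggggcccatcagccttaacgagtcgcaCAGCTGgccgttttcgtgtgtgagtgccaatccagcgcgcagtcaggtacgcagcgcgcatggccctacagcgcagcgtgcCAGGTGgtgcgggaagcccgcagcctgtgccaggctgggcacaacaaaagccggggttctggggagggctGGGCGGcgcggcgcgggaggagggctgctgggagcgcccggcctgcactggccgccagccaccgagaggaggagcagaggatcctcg
Timp3: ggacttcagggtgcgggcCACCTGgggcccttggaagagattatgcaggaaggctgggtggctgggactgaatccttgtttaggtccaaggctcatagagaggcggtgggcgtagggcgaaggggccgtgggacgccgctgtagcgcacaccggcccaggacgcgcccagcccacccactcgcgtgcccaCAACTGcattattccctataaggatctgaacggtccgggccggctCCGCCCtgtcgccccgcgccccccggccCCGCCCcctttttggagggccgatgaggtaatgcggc
Timp4: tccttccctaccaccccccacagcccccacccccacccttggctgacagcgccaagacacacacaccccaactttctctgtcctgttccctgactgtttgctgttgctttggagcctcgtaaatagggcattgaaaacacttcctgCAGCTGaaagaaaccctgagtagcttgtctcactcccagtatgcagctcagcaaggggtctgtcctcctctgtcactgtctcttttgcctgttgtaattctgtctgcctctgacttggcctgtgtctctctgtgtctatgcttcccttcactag

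In the Timp1 window TGAGTAA matched at 27 bases after the start, and it was found in 2.64% of 32544 promoter windows of the same length and in none of the other Timp windows. A GC box was found in the windows of Timp1 (1 match), Timp2 (1 match) and Timp3 (2 matches) and in 35.9% of all windows, and it was not found in that of Timp4. E-boxes numbered 2 in Timp2, 2 in Timp3 and 1 in Timp4, none was found in Timp1, and 72.3% of all windows hold one. The AP-1 site TGANTCA (7.79% of windows) and the TATA box (13.6%) were in none of the 4 windows. G and C made up 68.7% of the Timp2 and 67.0% of the Timp3 window, with 25 and 24 CpG dinucleotides, against 55.0% and 53.3% in those of Timp1 and Timp4. The Timp1 window held 8 CpG and that of Timp4 held 2, and 51.1% and 14.0% of all windows had fewer. The median over all windows was 53.0% with 7 CpG. These matches are descriptions of the letters, and binding was not measured.

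The paralogues took 4 different courses. Timp1 was above day 0 on every later day and highest on days 3 and 5, and Timp4 was below day 0 on every later day and lowest on day 7. Timp2 was below day 0 on day 1 and above it from day 3 to day 14. Timp3 was below day 0 on days 1 to 10, lowest on day 1, and did not pass the test on day 14. All 4 genes were called on each of days 1, 3, 5, 7 and 10, and 3 of 4 on day 14, at an adjusted p under 0.05 (limma, Benjamini-Hochberg over all genes). The share of all genes called was 44.9% on day 1 (22.3% higher, 22.6% lower), 50.7% on day 3 (24.1% and 26.6%), 60.1% on day 5 (26.4% and 33.7%), 62.9% on day 7 (26.6% and 36.3%), 60.2% on day 10 (25.9% and 34.3%) and 53.3% on day 14 (22.9% and 30.5%), so the calls alone do not set the Timp genes apart and the sizes below carry the description. Of the 24 pairs of gene and day, 11 were higher and 12 lower than day 0. Between later days fewer genes were called: 44.2% for day 3 against day 1, 6.59% for day 5 against day 3, 1.03% for day 7 against day 5, 1.94% for day 10 against day 7 and 8.9% for day 14 against day 10. Over longer intervals the share was 61.5% for day 5 against day 1, 65.0% for day 7 against day 1, 63.8% for day 10 against day 1, 26.3% for day 10 against day 3, 35.1% for day 14 against day 3, 27.1% against day 5 and 18.7% against day 7. The median difference over the 4 genes was -1.01 on day 1, 0.13 on day 5 and 0.67 on day 14.

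**Figure D1:**
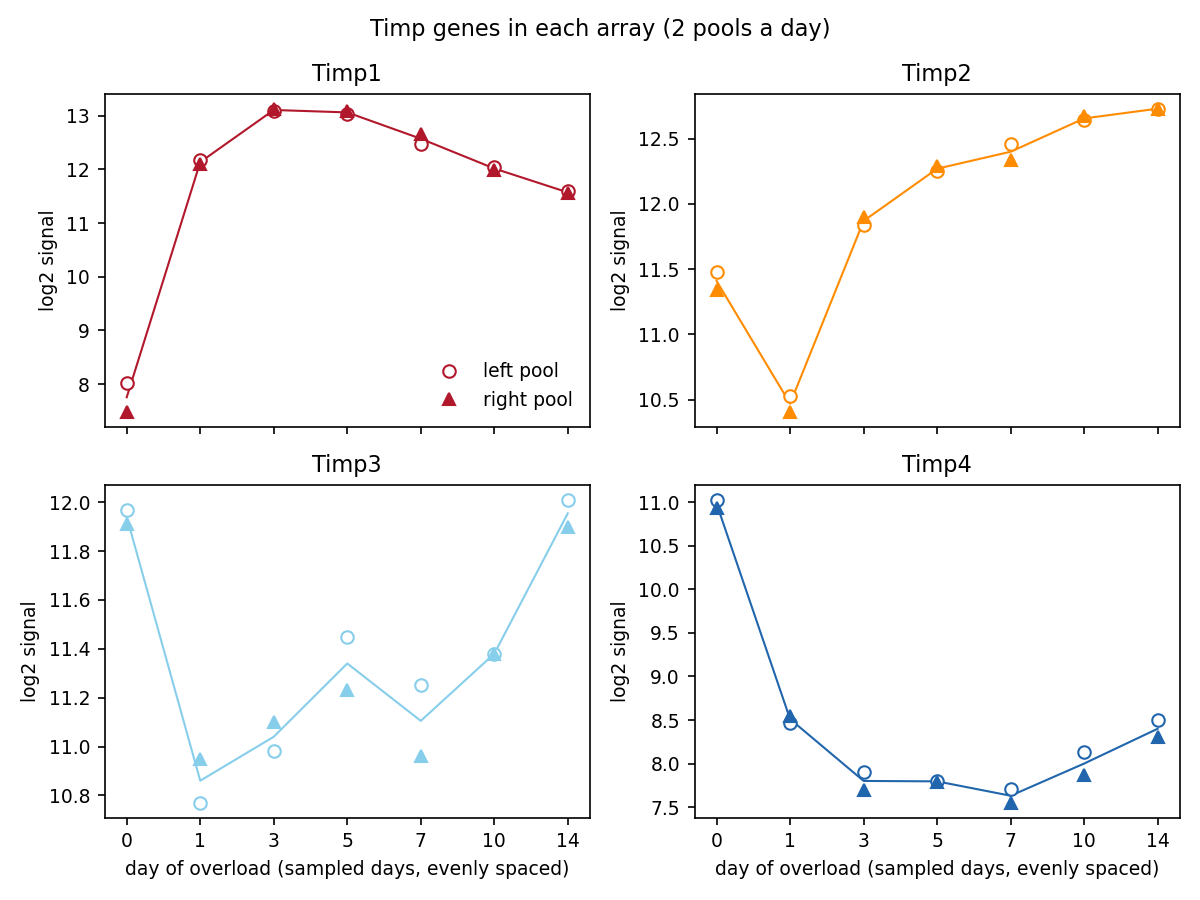
Log2 signal of Timp1, Timp2, Timp3 and Timp4 (a panel each, with its own vertical scale) on each sampled day of overload, with open circles for the left pool, filled triangles for the right pool and a line through the mean of the 2 arrays. Timp1 climbs to 13.11 on day 3 and Timp4 drops to 7.63 on day 7, while Timp2 dips to 10.47 on day 1 and Timp3 ends at 11.95 on day 14.

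Timp1 encodes the inducible, soluble inhibitor of the family. Its log2 signal in the left and right pools was 8.02 and 7.49 on day 0, 12.17 and 12.10 on day 1, 13.08 and 13.13 on day 3, 13.03 and 13.09 on day 5, 12.48 and 12.66 on day 7, 12.05 and 11.98 on day 10, and 11.59 and 11.55 on day 14. Every array after day 0 lay above both day 0 arrays by more than 3 log2 units, and the pools of a day lay within 0.18 of each other from day 1 on. Both day 0 signals were below the median over genes of every array (8.25 to 8.42), and detection was not scored. The fold sizes and ranks below start from that low level. On day 3 it was 5.35 ± 0.13 (SE, n = 2 arrays a day) above day 0, which is 40.9-fold (adjusted p = 2.0e-10, limma), and on day 5 it was 39.6-fold above. No other of the 19938 genes had a larger difference from day 0 on either of these days, and Timp1 ranked 13th from the top on day 1, 3rd on day 7, 8th on day 10 and 10th on day 14. On day 14 the difference was 3.82 ± 0.13, which is 14.1-fold and 71.3% of the log2 difference of day 3.

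By signal the days of Timp1 ran in the order 0, 14, 10, 1, 7, 5 and 3. Of the neighbours in that order, day 14 against day 0 (3.82) and day 7 against day 1 (0.44, adjusted p = 0.0132) passed the test, the second of these not without the right pool of day 1 (adjusted p = 0.0688), without the right pool of day 7 (adjusted p = 0.0936) or with quantile normalization (0.32). The neighbours 10 and 14, 1 and 10, 5 and 7, and 3 and 5 did not pass (adjusted p = 0.0602, 0.456, 0.126 and 0.878). The decline over the longer interval did pass: day 14 was 1.53 ± 0.13 below day 3 (-1.53, adjusted p = 4.2e-06), with both day 14 arrays under both day 3 arrays. On day 0 the Timp1 signals of the pools differed by 0.54, a gap larger than that of 97.9% of genes. Without either day 0 pool the step between days 5 and 7 passed as well (-0.49, adjusted p = 0.0158), as did those between days 7 and 10 and days 10 and 14 (adjusted p = 0.00848 and 0.00729). On that day 9 of 10 macrophage markers, 6 of 7 neutrophil markers and 7 of 9 fibroblast markers were also higher in the left than in the right pool; their part in the Timp1 gap was not tested.

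Timp4 encodes the inhibitor with the most restricted expression. The left and right pools had log2 signals of 11.03 and 10.94 on day 0, 8.47 and 8.55 on day 1, 7.90 and 7.70 on day 3, 7.80 and 7.79 on day 5, 7.71 and 7.55 on day 7, 8.13 and 7.87 on day 10, and 8.50 and 8.30 on day 14. All 12 arrays after day 0 were below both day 0 arrays by more than 2 log2 units. On days 3 to 10 the Timp4 signals were below the median over genes of every array (8.25 to 8.42). Whether such low levels limited the measured fall was not tested. On day 1 Timp4 had fallen by 2.48 ± 0.11, which is 5.56-fold, and on day 7 by 3.36 ± 0.11, which is 10.2-fold (adjusted p = 4.9e-10). From day 1 to day 14 it was among the 17 lowest differences of all genes, with the fifth lowest on day 7. On day 14 it was still 5.99-fold below day 0 (-2.58 ± 0.11), with 76.9% of the log2 difference of day 7 remaining.

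In order of signal the days of Timp4 were 7, 5, 3, 10, 14, 1 and 0. Day 1 was below day 0, and day 14 was above day 10 by 0.40 ± 0.11 (adjusted p = 0.0396), and the other neighbours (7 and 5, 5 and 3, 3 and 10, 14 and 1) did not pass (adjusted p between 0.203 and 0.98). The small step from day 10 to day 14 lost its call without the right pool of day 10 (0.27, adjusted p = 0.29), without the left pool of day 14 (0.30, adjusted p = 0.237), without either pool of day 5 (adjusted p = 0.0527) and in a fit of only the 4 arrays compared (adjusted p = 0.11). Against day 7, day 14 was 0.77 ± 0.11 higher (adjusted p = 5.4e-04). Timp1 and Timp4 lay on opposite sides of day 0 on all 6 later days: the log2 difference of Timp1 exceeded that of Timp4 by 6.86 on day 1, by 8.53 on day 3 and by 6.40 on day 14. Over the 14 arrays their log2 signals correlated at r = -0.97, a description over arrays that share the same step away from day 0.

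**Figure D2:**
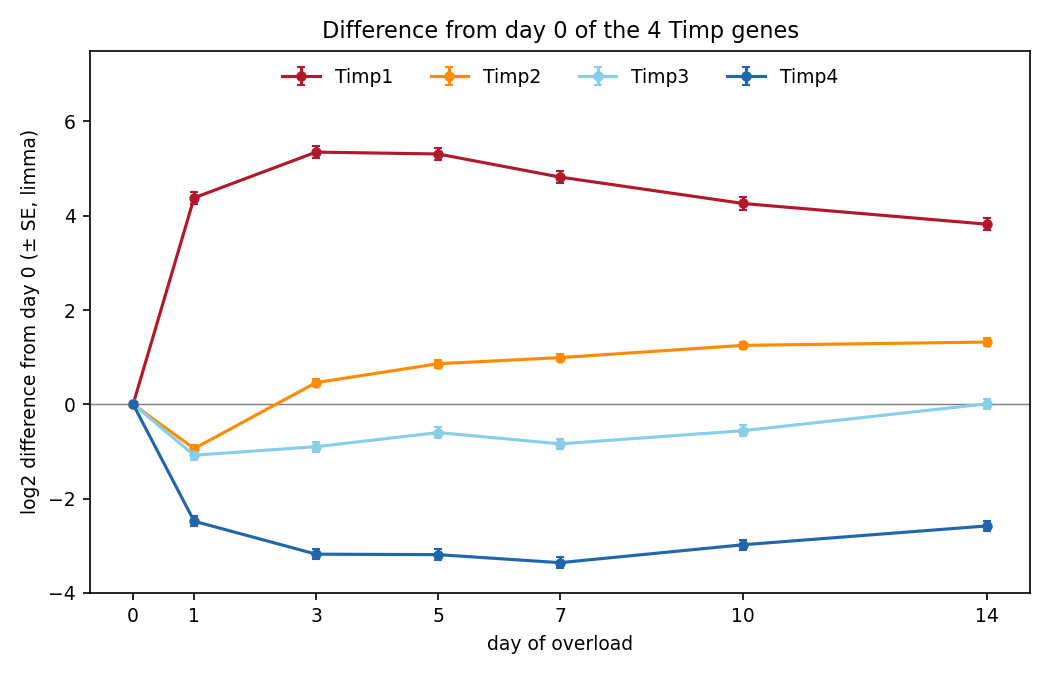
Log2 difference from day 0 (vertical axis, with the limma standard error as bars, 2 arrays a day) of the 4 Timp genes against the day of overload (horizontal axis, to scale). Timp1 lies between 3.82 and 5.35, Timp4 between -2.48 and -3.36, Timp2 crosses from -0.94 on day 1 to 0.46 on day 3, and Timp3 reaches 0.01 on day 14.

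Timp2 encodes the inhibitor that takes part in the activation of MMP2 by MMP14. Its log2 signal in the left and right pools was 11.48 and 11.34 on day 0, 10.53 and 10.41 on day 1, 11.84 and 11.90 on day 3, 12.25 and 12.29 on day 5, 12.46 and 12.34 on day 7, 12.64 and 12.67 on day 10, and 12.73 and 12.73 on day 14. Both day 1 arrays were the lowest of all 14, and from day 3 on every array was above both of day 0. Timp2 had fallen by 0.94 ± 0.08 on day 1 (1.92-fold, adjusted p = 8.9e-07). On day 3 it was 0.46 ± 0.08 above day 0 (adjusted p = 2.7e-04), and on day 14 it was 1.32 ± 0.08 above, which is 2.50-fold (adjusted p = 5.9e-08).

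Day 14 thus held the highest Timp2 signal, whereas Timp1 was highest on day 3. The order of days for Timp2 was 1, 0, 3, 5, 7, 10 and 14, which from day 1 on is the order of time. The steps from day 1 to day 3 (1.40 ± 0.08, adjusted p = 1.3e-07) and from day 3 to day 5 (0.40 ± 0.08, adjusted p = 0.00834) passed. Later single steps did not (adjusted p = 0.598, 0.123 and 0.65), although day 14 was 0.46 ± 0.08 above day 5 (adjusted p = 9.5e-04). The step from day 3 to day 5 did not pass without the left pool of day 3 (adjusted p = 0.0781) or the right pool of day 5 (adjusted p = 0.0797).

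Timp3 encodes the matrix-bound inhibitor, which also acts on ADAM17 and on aggrecan-cleaving ADAMTS enzymes. The left and right pools had log2 signals of 11.97 and 11.91 on day 0, 10.77 and 10.95 on day 1, 10.98 and 11.10 on day 3, 11.45 and 11.23 on day 5, 11.25 and 10.96 on day 7, 11.38 and 11.38 on day 10, and 12.01 and 11.90 on day 14. The arrays of days 1 to 10 were all below those of day 0, and those of day 14 overlapped with day 0. Timp3 had fallen by 1.08 ± 0.11 on day 1 (2.12-fold, adjusted p = 5.0e-06) and was 0.56 ± 0.11 below day 0 on day 10 (-0.56, adjusted p = 8.4e-04).

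On day 14 the difference of Timp3 from day 0 was 0.01 ± 0.11 (adjusted p = 0.922), and it was -0.10 with array medians made equal. Day 14 was above day 10 by 0.57 ± 0.11 (adjusted p = 0.00937), although this call was lost without either pool of day 10 (adjusted p = 0.0556 and 0.0743) or the left pool of day 14 (adjusted p = 0.0716). Against day 7 it was 0.85 ± 0.11 higher (adjusted p = 3.3e-04). The days ran 1, 3, 7, 5, 10, 0 and 14 in order of signal, and the only neighbours that passed were 10 and 0. Within days 1 to 10 the mean signal was lowest on day 1. Day 7 did not pass against day 1 (0.24 ± 0.11, adjusted p = 0.067) or against day 3 (0.06 ± 0.11, adjusted p = 0.726). The pairs that passed were day 5 above day 1 (0.48 ± 0.11, adjusted p = 0.00278), day 10 above day 1 (0.52 ± 0.11, adjusted p = 0.00149) and day 10 above day 3 (0.34 ± 0.11, adjusted p = 0.0384). The last of these did not pass without either pool of day 3 (adjusted p = 0.189 and 0.0699), without either pool of day 10 (adjusted p = 0.135 and 0.124) or with equal array medians (0.30).

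A moderated F test over the 7 days was passed by all 4 genes and by 79.5% of all genes, with F = 379 for Timp1, 216 for Timp2, 30.8 for Timp3 and 232 for Timp4 (adjusted p = 2.6e-10, 1.9e-09, 6.8e-06 and 1.5e-09, limma). Right and left pools did not differ for any Timp gene after adjustment (limma with the day as a block). The largest side difference was that of Timp4, at -0.12 ± 0.05 for right minus left, lower on the right on 6 of 7 days (unadjusted p = 0.0291, adjusted p = 0.443). Over all genes that test called 0.0%, and 2092 genes had an unadjusted p under 0.05.

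The MMPs are the enzymes that TIMPs inhibit, and 22 of 23 listed genes were measured. On day 1, 9 were higher and 1 was lower than on day 0, against 22.3% and 22.6% of all genes. On day 5, 11 were higher and 3 lower, against 26.4% and 33.7% of all genes, and on day 14, 10 were higher and 5 lower, against 22.9% and 30.5%. Their median difference was 0.20, 0.36 and 0.02 on these days, while the median of all genes was 0.04, -0.12 and -0.11. The split of all called genes into higher and lower depends on the centring: on day 14, 42.9% of called genes were higher with the deposited values, 28.4% with equal array medians and 59.7% with the median difference set to 0.

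Among the MMPs, Mmp3 (stromelysin 1) and Mmp19 were highest on day 1, at 3.80 ± 0.17 and 2.73 ± 0.09 above day 0, which is 14.0-fold and 6.63-fold. Mmp9, a gelatinase of leukocytes, was 2.04 ± 0.23 above day 0 on day 1 and at -0.99 ± 0.23 on day 14 (adjusted p = 0.00335). Mmp8, the neutrophil collagenase, was 1.2 ± 0.37 above on day 1 (adjusted p = 0.0188) and at -1.74 ± 0.37 on day 14 (adjusted p = 0.00193). Mmp25, another leukocyte enzyme, rose by 1.2 ± 0.12 on day 1 and was at 0.07 ± 0.12 on day 3 (adjusted p = 0.636). Mmp12, the macrophage elastase, was highest on day 5 at 2.84 ± 0.17.

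A further group of MMPs was highest on day 10 or 14. Mmp14, the membrane-bound enzyme, was 3.21 ± 0.09 above day 0 on day 10 (9.26-fold, adjusted p = 1.6e-10), the collagenase gene Mmp13 3.19 ± 0.33, Mmp23 2.67 ± 0.09 and Mmp11 1.17 ± 0.10. Mmp2, which encodes gelatinase A, was 2.21 ± 0.12 above day 0 on day 14 and Mmp16 1.80 ± 0.14. Of the 12 MMPs named, 5 therefore had their largest rise no later than day 5, 6 on day 10 or 14, and Mmp8 had its largest difference as a fall on day 14. This split goes by the day of the largest value alone, and tests between later days are not given for these genes. Some courses were flat: Mmp19 was 2.73 above day 0 on day 1 and 2.63 on day 5. Mmp23 was 2.59 above on day 7 and 2.67 on day 10, and Mmp13 3.02 and 3.19.

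Timp2, Mmp2 and Mmp14 were all above day 0 on days 3 to 14. Mmp2 was at -0.29 ± 0.12 on day 1 (adjusted p = 0.0684), then 1.12 above day 0 on day 3, 2.18 on day 10 and 2.21 on day 14. Mmp14 was 0.58 ± 0.09 above on day 1 (adjusted p = 1.4e-04), when Timp2 was 0.94 below, and it was 1.94 above on day 3, 3.21 on day 10 and 2.84 on day 14, while Timp2 was 1.25 above on day 10 and 1.32 on day 14. Over the 14 arrays the log2 signal of Timp2 correlated with that of Mmp2 at r = 0.96 and with that of Mmp14 at r = 0.87, values that describe arrays sharing the same normalization and days.

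**Figure D3:**
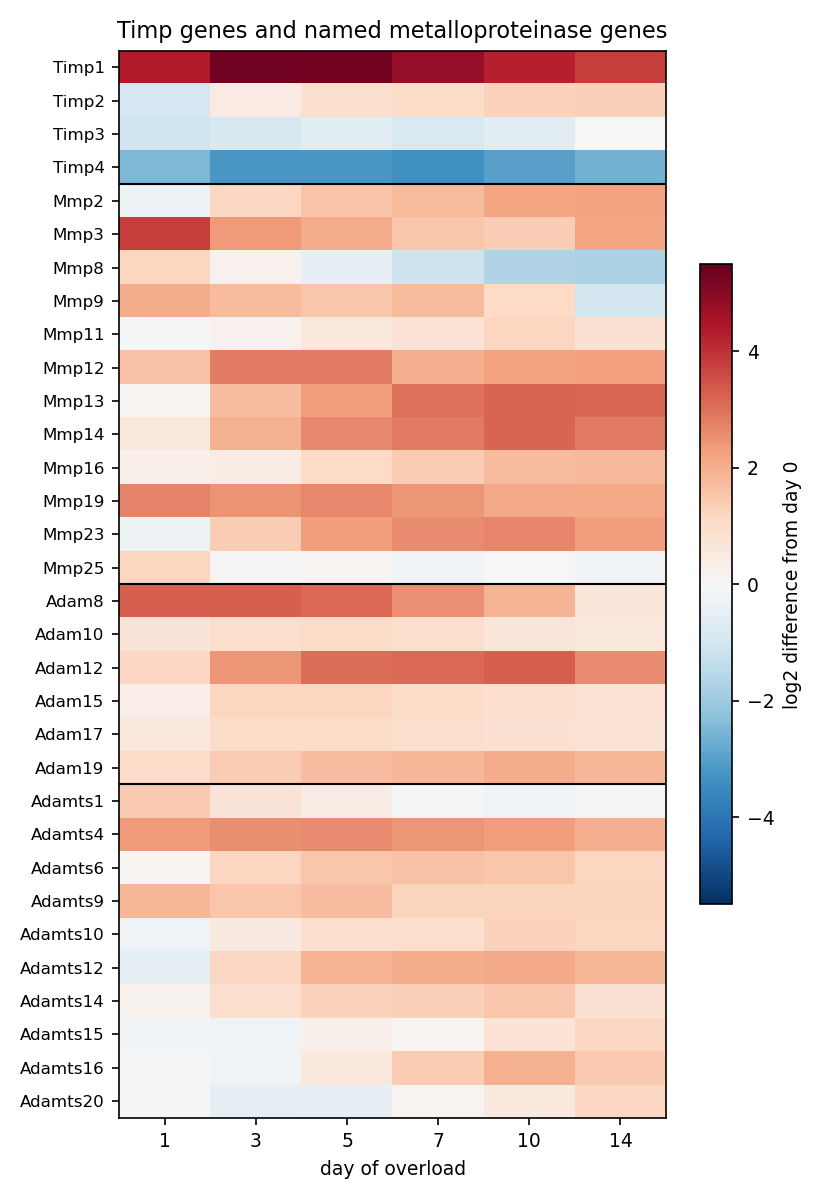
Log2 difference from day 0 (colour, red for higher and blue for lower) on each of the 6 later days (columns) for the 4 Timp genes and for the Mmp, Adam and Adamts genes named by the rule (rows, black lines between families). Timp1 and most of the proteases shown are red on most days, and Timp4 is the bluest row, at -3.36 on day 7. Proteases without a called difference of at least 1 on any day are not shown, so the rows do not describe whole families.

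ADAM proteases shed proteins from cell surfaces, and the 9 genes listed are a chosen part of that family. Of these 9, 6 were higher and 1 lower on day 1, against 22.3% and 22.6% of all genes. On day 5, 7 were higher and 1 lower, against 26.4% and 33.7%. The medians were 0.59 and 1.07, against 0.04 and -0.12 over all genes. Adam17, which releases TNF and is a target of TIMP3, was 1.02 ± 0.10 above day 0 on day 3 (adjusted p = 2.6e-06), a day on which Timp3 was 0.90 below. Adam10 was 1.07 ± 0.09 above on day 5, when Timp3 was 0.60 below, and Adam15 was 1.18 ± 0.08 above on that day. Adam8, a protease of leukocytes, was 3.30 ± 0.14 above on day 3 and 0.67 ± 0.14 above on day 14. Adam12, which is expressed by regenerating muscle and mesenchymal cells, reached 3.30 ± 0.09 on day 10, and Adam19 2.04 ± 0.07.

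The ADAMTS genes, of which 18 of 19 were measured, had 4 higher and 3 lower members on day 1, 12 and 3 on day 5, and 13 and 2 on day 14. The shares over the whole array were 22.3% and 22.6% on day 1, near the ADAMTS counts, 26.4% and 33.7% on day 5, and 22.9% and 30.5% on day 14. The ADAMTS medians were 0.08, 0.62 and 0.90, against 0.04, -0.12 and -0.11 over all genes. Adamts4, an aggrecanase and a target of TIMP3, was 2.33 ± 0.09 above day 0 on day 1 and 2.58 ± 0.09 on day 5. Adamts1 was 1.45 ± 0.10 above on day 1 and at -0.05 ± 0.10 on day 14 (adjusted p = 0.663). Adamts9 was highest on day 1 (1.82 ± 0.14), Adamts6 on day 7 (1.59 ± 0.08), and Adamts12 (2.09 ± 0.09), Adamts16 (1.94 ± 0.12), the procollagen processing gene Adamts14 (1.52 ± 0.08) and Adamts10 (1.25 ± 0.07) on day 10. Adamts20 and Adamts15 were highest on day 14, at 1.16 ± 0.11 and 1.14 ± 0.10.

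Of 9 other inhibitors of metalloproteinases, 2 were higher and 4 lower on day 5, near the 26.4% and 33.7% of all genes. The list median lay between -0.29 and -0.01 over the 6 days, and that of all genes between -0.14 and 0.04. Reck, a membrane-anchored inhibitor of MMPs, was 0.51 ± 0.13 below day 0 on day 1 (-0.51, adjusted p = 0.0076) and 0.94 ± 0.13 above it on day 14 (adjusted p = 1.0e-04), a dip and a late rise in the same directions as those of Timp2. The general protease inhibitor gene A2m was higher on days 3 to 10, with 1.11 ± 0.11 on day 5, and at -0.16 ± 0.11 on day 14 (adjusted p = 0.264). Tfpi2, which encodes an inhibitor of serine proteases that also acts on MMPs, was higher on all 6 days, with 0.81 ± 0.15 on day 1, 2.10 ± 0.15 on day 7 and 1.45 ± 0.15 on day 14. Spock2, which encodes a testican of the matrix, fell by 1.11 ± 0.08 on day 3. Mug1, Mug2 and Pzp are related genes and are reported as uncertain, and Mug1 and Pzp are among the 4 counted as lower on day 5.

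Of 8 genes for proteins that bind TIMPs, 6 were higher and 2 lower on day 1, and 5 were higher and 1 lower on day 14. The shares of all genes were 22.3% and 22.6% on day 1 and 22.9% and 30.5% on day 14, and the list medians were 0.49 and 0.47, against 0.04 and -0.11. Cd63, the tetraspanin that binds TIMP1 at the cell surface, was 1.2 ± 0.09 above day 0 on day 1 and 1.42 ± 0.09 on day 3, the days of the steepest rise and of the peak of Timp1. Cd63 then stayed at 1.38 on days 5 and 7 and 1.34 on day 10, when Timp1 was at -1.09 against day 3, and was at 0.92 on day 14. Itgb1, an integrin subunit of TIMP receptors, was 1.19 ± 0.08 above on day 1, and Igf1r 1.17 ± 0.07. Lrp1, the endocytic receptor that clears TIMPs and their protease complexes, was 1.62 ± 0.08 above on day 5. Kdr, the VEGF receptor bound by TIMP3, fell with Timp3 on day 1 (by 1.24 ± 0.07) and was still below day 0 on day 14 (-0.48 ± 0.07, adjusted p = 1.3e-04), when Timp3 was not. Agtr2, an angiotensin receptor that TIMP3 binds, was 2.65 ± 0.17 above day 0 on day 14.

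Of 12 cytokine and factor genes known to act on Timp1 transcription, 11 were higher and none was lower on day 1, against 22.3% and 22.6% of all genes, and 6 were higher and 1 lower on day 14, against 22.9% and 30.5%. The list medians were 1.81 and 0.12, against 0.04 and -0.11 over all genes. Il6 and Il1b were 4.75 ± 0.25 and 4.49 ± 0.18 above day 0 on day 1, against 0.70 ± 0.25 and 0.63 ± 0.18 on day 14. Osm, the gene of oncostatin M, was 2.43 ± 0.15 above on day 1 and at 0.27 ± 0.15 on day 7 (adjusted p = 0.13), and Lif was 1.26 ± 0.16 above on day 1. Socs3 and Stat3, of the pathway used by the products of Il6, Osm and Lif, were 2.95 ± 0.15 and 1.62 ± 0.07 above on day 1. The AP-1 genes Fosl1, Junb and Fos were 3.09 ± 0.14, 2.0 ± 0.08 and 1.38 ± 0.11 above on day 1, and on day 14, when Timp1 was still 14.1-fold above, Fosl1 was at -0.09 ± 0.14 and Fos at -0.19 ± 0.11 (adjusted p = 0.589 and 0.145), and Junb was 0.21 ± 0.08 above (adjusted p = 0.0368). Jun, the other AP-1 gene listed, named after its values were seen, was at 0.01 ± 0.08 on day 1 (adjusted p = 0.911) and was lower on days 3 to 14, with -0.50 ± 0.08 on day 7 and -0.32 ± 0.08 on day 14 (adjusted p = 0.00491). Tgfb1 kept a longer course, from 1.25 ± 0.12 on day 1 through 1.93 ± 0.12 on day 5 to 1.27 ± 0.12 on day 14.

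In the mouse genome Timp1, Timp3 and Timp4 lie within the synapsin genes Syn1, Syn3 and Syn2, on chromosomes X, 10 and 6, while Timp2 on chromosome 11 overlaps Cep295nl and lies within no gene, by the spans in RefSeq. Over the 14 arrays the log2 signals correlated at r = 0.76 for Timp1 and Syn1, 0.25 for Timp3 and Syn3 and -0.27 for Timp4 and Syn2, as a description of arrays that share days. Syn1 was higher on days 1, 3, 5 and 10, with its largest difference on day 3 (0.55 ± 0.10), when Timp1 was 5.35 above. Syn2 was at -0.11 ± 0.09 on day 1 (adjusted p = 0.366) and 0.51 ± 0.09 above day 0 on day 10, when Timp4 was 2.98 below. Syn3 was at -0.05 ± 0.09 on day 1 (adjusted p = 0.674), when Timp3 had fallen by 1.08, and it was lower on days 3 to 14, with -0.57 ± 0.09 on day 7 and -0.32 ± 0.09 on day 14 (adjusted p = 0.00914), when Timp3 was at 0.01.

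Markers of other cell types were counted over the same days, and their counts can be read against the shares of all genes, 22.3% higher and 22.6% lower on day 1, 26.4% and 33.7% on day 5, and 22.9% and 30.5% on day 14. All 10 macrophage markers were higher on each of days 3 to 14 and 9 of 10 on day 1, and the mean log2 level of the list ranged over the arrays of a day from 8.50 to 8.89 on day 0, from 11.67 to 11.72 on day 3 and from 10.52 to 10.66 on day 14. The median of their differences was 2.87 on day 3 and 2.78 on day 5, the days of highest Timp1 signal, which the test did not tell apart for Timp1. By marker the largest difference fell on day 1, 3 or 5. Neutrophil markers were highest on day 1, with 7 of 7 higher and mean levels between 11.46 and 11.60, against 8.80 to 9.27 on day 0, and 5 of 7 were lower on day 14. Fibroblast markers had 6 of 9 members lower on day 1 and 9 of 9 higher on day 14, with mean levels between 10.19 and 10.31 on day 0, 9.84 and 9.88 on day 1 and 12.18 and 12.24 on day 14. That dip and rise had the order of days of Timp2. The part of these cells in the Timp differences was not tested.

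The medians of muscle fibre, vessel and fat markers lay nearer to 0 than the Timp4 difference on days 1, 5 and 14. Of 12 fibre markers 5 were lower on day 1, 11 on day 5 and 4 on day 14, with medians of -0.26, -0.66 and -0.17, when Timp4 stood at -2.48, -3.19 and -2.58. The mean level of the fibre list was 13.89 to 13.92 on day 0, 13.00 to 13.33 on day 5 and 13.75 to 13.79 on day 14. The highest deposited value was 14.79, and Timp4 started from a mean of 10.98. Whether differences at such high levels compare in size with that of Timp4 was not tested. All 6 measured adipocyte markers were lower on day 1 (median -0.48) and none on day 14 (median 0.06), with mean levels of 8.79 to 9.0 on day 0, 8.29 to 8.47 on day 1 and 8.98 to 9.17 on day 14. Of 7 smooth muscle and pericyte markers 6 were lower on day 1 (median -0.87), when their mean level was 9.09 to 9.11, against 9.89 to 9.99 on day 0. On day 14, 5 of them were higher. Of 8 endothelial markers 4 were lower on day 1 and 6 were higher on day 14, with mean levels of 9.82 to 10.14 and 10.64, against 10.28 to 10.33 on day 0. Their part in the falls of Timp3 and Timp4 was not tested.

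**Figure D4:**
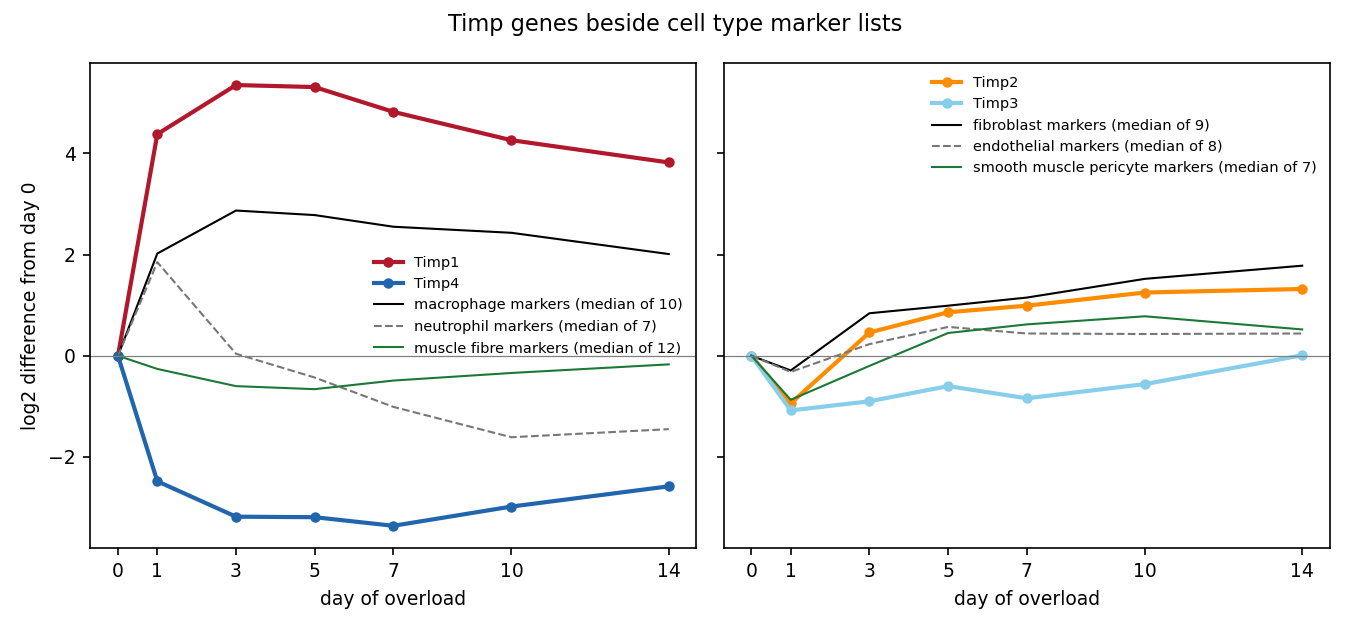
Log2 difference from day 0 against the day of overload for Timp1 and Timp4 beside the medians of macrophage, neutrophil and muscle fibre markers (left), and for Timp2 and Timp3 beside those of fibroblast, endothelial and smooth muscle or pericyte markers (right). Timp1 and the macrophage median (2.87) are both highest on day 3, by a small margin over day 5 (median 2.78). Timp4 at -3.36 lies below the fibre median, and Timp2 and the fibroblast median are both lowest on day 1 and highest on day 14.

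Of the smaller lists, the 4 satellite cell markers had 1 higher and 1 lower on day 1, 4 higher on day 7 and 1 higher on day 14. The shares of all genes higher on these days were 22.3%, 26.6% and 22.9%, and 22.6% were lower on day 1. The 3 measured Schwann cell markers had 2 lower on days 5 to 14, when between 30.5% and 36.3% of all genes were lower. All 4 tendon markers were higher on days 5 to 14, with medians from 1.03 to 1.62, when between 22.9% and 26.6% of all genes were higher.

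For each Timp gene the genes with the most similar course were sought among 4247 genes called by the F test with day means spanning at least 1 log2 unit, predicted and small RNA genes left out, by the correlation of log2 signals over the 14 arrays. For Timp1 these were Iqgap1 (r = 0.997), Ms4a6d (0.995), Tpm3 (0.995), Anxa2 (0.995) and Cap1 (0.993), and the most opposite was Dmac2 (-0.992). Iqgap1, Anxa2 and Cap1 encode proteins of the actin cortex and membrane, and Tpm3 encodes a tropomyosin. The shape was shared but not the size: on day 3 Iqgap1 was 1.67 and Anxa2 2.51 above day 0, against 5.35 for Timp1, and Ms4a6d, a gene of myeloid cells, was 4.69 above. For Timp4 they were Lrrc74b (0.994), Atp13a5 (0.993), the water channel gene Aqp4 of the muscle fibre membrane (0.992), Dnajc28 (0.990) and Asb10 (0.990). Aqp4 was at -2.52 on day 7, and the most opposite gene was Sec61a1 (-0.994), of the translocon of the endoplasmic reticulum.

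The genes most like Timp2 were Fndc1 (0.998), Scara3 (0.996), Cilp (0.994), Plxdc2 (0.992) and Map3k12 (0.991). Cilp, a matrix protein of cartilage and fibroblasts, was at -1.30 on day 1 and 2.41 above day 0 on day 14, and Fndc1 was at -1.73 and 2.13. Klhl21 was among the most opposite (-0.983), with 0.70 on day 1 and -1.31 on day 14. Those most like Timp3 were Abca8a (0.971), Vtn, the gene of vitronectin (0.950), Pcsk6 (0.946), Ctnnal1 (0.942) and Myh11, the smooth muscle myosin (0.940). Abca8a was at -2.30 on day 1 and at -0.09 on day 14 (adjusted p = 0.633), and Myh11 was at -1.42 and at -0.29 (adjusted p = 0.0669). Most opposite to Timp3 was Lmnb1 (-0.957), which encodes lamin B1. Among the Timp genes themselves r was 0.60 for Timp3 and Timp4, 0.38 for Timp2 and Timp3, 0.26 for Timp1 and Timp2, -0.41 for Timp2 and Timp4, and -0.68 for Timp1 and Timp3. All these values describe 14 arrays that share normalization and the step from day 0, and they carry no test.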

How the data were processed

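The deposited file holds 1 log2 signal for each probe set and array, between 2.35 and 14.79, and array medians over all probe sets are 7.91 to 7.97. Partek is named, without a version, in the submitters' processing notes, and how arrays were normalized was not stated there or in the labels. RNA input is stated as 100 ng by the design text but as 250 ng by the protocol for labelling. Detection was not scored, and precision is limited by 2 arrays a day.

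Of 35557 probe sets, 21789 were annotated with 1 symbol, 1621 with several and 12147 with none. The first kind was used, with the probe set of highest mean for each of 999 genes with several, which left 19938 genes, with no filter on low values. All 14 arrays entered 1 linear model in R 4.3.3 with limma 3.58.1 (day as group, moderated variances, 7 residual degrees of freedom, prior 4.95). All pairs of days, a moderated F test and right against left were tested, two-sided, adjusted by Benjamini-Hochberg over all genes and called under 0.05. The procedure was tested on simulated data.

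The members, gene lists and rules were chosen with earlier results of these data known. Named were the Timp genes, the list members with a called difference of at least 1 on any day, Syn1, Syn2, Syn3, Mmp2, Mmp14, Adam17, Reck, Cd63 and Lrp1, and for each Timp gene the 5 most alike and 3 most opposite genes, of which some are given. Lists are described by counts and medians only, and a member may also be made by other cells than those a list is named for. Promoter windows are from RefSeq (GRCm38.p6), and all 4 genes matched. As alternatives the arrays were quantile normalized, given equal medians or weighted, the lowest 25% of genes by signal were dropped, all probe sets or their mean were used, an intensity trend was fitted, side was added as a block, the fit was limited to the 4 arrays compared, and each array was left out in turn. Shifting each array until its median difference from day 0 is 0 was an alternative chosen after seeing the data.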

Additional observations from a re-analysis of the deposited data

Results flagged for a closer look

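Timp3 on day 14 was the only pair of Timp gene and day in which the pools moved in opposite directions from day 0, at 0.05 in the left pool and -0.02 in the right. Both values are small against the standard error of 0.11, and the difference between sides was not tested.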

How the results depend on the processing

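Against day 0, Timp1, Timp2 and Timp4 kept their direction and call on all 6 days and Timp3 on days 1 to 10, under all alternatives run; Timp1 on day 3 ranged from 5.08 to 5.62 and Timp4 on day 7 from -3.50 to -3.22. Timp3 on day 14 turned to -0.10 with equal array medians and ranged from -0.04 to 0.07 with an array left out, never called. Between days 3 and 5 Timp1 was at 0.00 and Timp4 at 0.04 with the median difference set to 0, and Timp4 ranged from -0.11 to 0.09 with an array left out. Timp1 steps that were not called passed in some settings. Day 10 against day 7 passed with the lowest 25% left out, an intensity trend or array weights (-0.56 each). It also passed with the median difference set to 0 (-0.57). Day 14 against day 10 passed with the first 3 of these and with only the 4 arrays compared (-0.44 each), and with the shift (-0.46). With an array left out, day 10 against day 7 ranged from -0.65 to -0.46 and day 14 against day 10 from -0.48 to -0.41. Day 7 against day 5 ranged from -0.58 to -0.40. Among the fits with an array left out, these steps passed only where a day 0 pool was the array dropped. The step of Timp4 from day 10 to 14 lost its call with quantile normalization (0.39) and with only the 4 arrays compared (0.40), and ranged from 0.27 to 0.53 with an array left out. Of 8 differences between days further apart, run under the same settings after the data were seen, 6 kept their call throughout. Timp1 on day 7 against day 1 was not called with quantile normalization (0.32) and ranged from 0.35 to 0.53 with an array left out, and Timp3 on day 10 against day 3 was not called with equal array medians (0.30) and ranged from 0.28 to 0.40. With an array left out Timp2 on day 5 against day 3 ranged from 0.37 to 0.44 and Timp3 on day 14 against day 10 from 0.52 to 0.63. The cause of these changes was not tested.

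Genes lower on day 14 numbered 6074, 9288 with equal array medians, 3720 with the median difference set to 0 and 4028 (without the right pool of day 14) to 6192 with an array left out, and with that shift 4466, 4374 and 4314 were lower on days 5, 7 and 10 (6724, 7243 and 6842 with the deposited values). Lower calls of MMPs, summed over the 6 days, were 19, against 37 with equal array medians, 10 with the lowest 25% left out and 12 without the left pool of day 0. Those of ADAMs were 5, and 1 to 3 in 6 settings; those of other inhibitors were 21, and 11 with the shift and 13 without the left pool of day 0; those of genes acting on Timp1 were 5, and 2 with the shift. In the fit with the replicate block (side), Timp1 on day 3 was at 5.35 and Timp4 on day 7 at -3.36, and the block changed no Timp call. Right minus left differences correlated between days at r from -0.19 to 0.35 (6 of 21 pairs over 0.1), and different days are different animals, so sides do not pair samples.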
